A study of Mus musculus with 36 samples.

Results

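The autosomal differentiation programme of the single cultures was examined in differentiating Xmas mouse embryonic stem cells (mESCs). These 8 libraries are those whose names end in the word single and that were collected on days 7 and 8 (4 libraries, called late) or on days 1 and 2 (4 libraries, called early) of the course, 8 of 36 libraries in the series. Each group of 4 holds lines X14 and X18 on 2 consecutive days, so a group of 4 is not 4 separate cultures of 1 day, and the p-values measure only the spread between these libraries. The labels give the cells as female and of strain C57/Bl6, and Xmas lines were derived to carry GFP at Hprt on one X chromosome and mCherry at Hprt on the other, both driven by the Hprt promoter. Whether the cells of the single cultures still held both X chromosomes is not given in the labels and was not tested. They were expanded with 2i and LIF and then weaned in daily steps into DME HiHi, a serum medium without 2i or LIF, so that days 1 and 2 fall within the weaning. By the methods of the study, cells were replated when the last step was reached and not passaged afterwards, so day, medium and time since plating change together between early and late and cannot be told apart. The labels do not say what single and double stand for. The study uses double positive and single positive for cells that express both reporters or 1 of them, but whether these libraries were sorted in this way is not given in the sources used here. X-linked genes were left out of the gene counts and lists, which cover chromosomes 1 to 19.

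In medium with inhibitors of MEK and GSK3 (2i) and the cytokine LIF, mESCs are held in the naive state of the preimplantation epiblast by a network of transcription factors such as Nanog, Esrrb, Klf4 and Tfcp2l1. When the inhibitors are withdrawn, FGF signalling through ERK resumes, the naive network is dismantled, and cells pass through a formative state marked by Otx2, Pou3f1 and Fgf5 before they respond to Nodal, BMP and Wnt signals that specify the germ layers. Without added lineage factors, serum medium gives a mixture of cell types. In bulk RNA, fewer cells of a type and less RNA per cell cannot be told apart, and this holds for every value given here.

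The 8 libraries held 730127 to 1844587 reads in genes. Levels are given as RPM (reads scaled to the mapped reads of each library), a scale on which 3 reads, taken as the floor, equal 1.46 to 3.57 RPM. Such depth limits what can be said of genes at a few RPM, and floors and intervals cover counting error only. Over the autosomal genes tested, Pearson's r between libraries of the same stage was 0.924 to 0.963, and between an early and a late library 0.744 to 0.811. The summed level of 5 pluripotency markers (Pou5f1, Sox2, Nanog, Zfp42 and Esrrb) was 3032 to 4004 RPM in the early libraries and 536 to 842 RPM in the late ones, so the label mESC held for the early libraries, and the late libraries still held these transcripts. Reads on the X chromosome took 2.71% to 3.60% of the gene reads in the 8 single libraries and 4.44% to 5.67% in the 8 double libraries of the same days, without overlap. Xist, the RNA that coats an inactive X, was at 0.524 to 3.98 RPM in early single libraries and at 9.52 to 83.1 RPM in late ones.

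Of 24483 autosomal genes in the table, 12113 passed the filter of 1 RPM in at least 4 of the 8 libraries and were tested with limma, with line as a covariate. A gene is called where the Benjamini-Hochberg adjusted p, taken over all genes tested, is under 0.05 and the log2 fold change is at least 1 in either direction. By this rule 3400 genes were called, of which 2180 were higher late (18% of genes tested) and 1220 were lower late (10.1%). The genes called higher had a median of 5.51 RPM early and 26.1 RPM late, and those called lower had a median of 22.9 RPM early and 4.81 RPM late. No early library held a read of 176 of the genes called higher, and no late library held a read of 125 of those called lower. The 4 late libraries lay wholly above the 4 early ones in 21.5% of genes tested and wholly below them in 14.2%. Genes called higher therefore made up 64.1% of all calls. That share depended on the scaling, since quantile normalisation shifted the median over all genes by -0.15 (log2) and gave 1743 higher and 1648 lower (51.4% higher). As deposited, the median over all genes tested was 0.10.

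**Figure D1:**
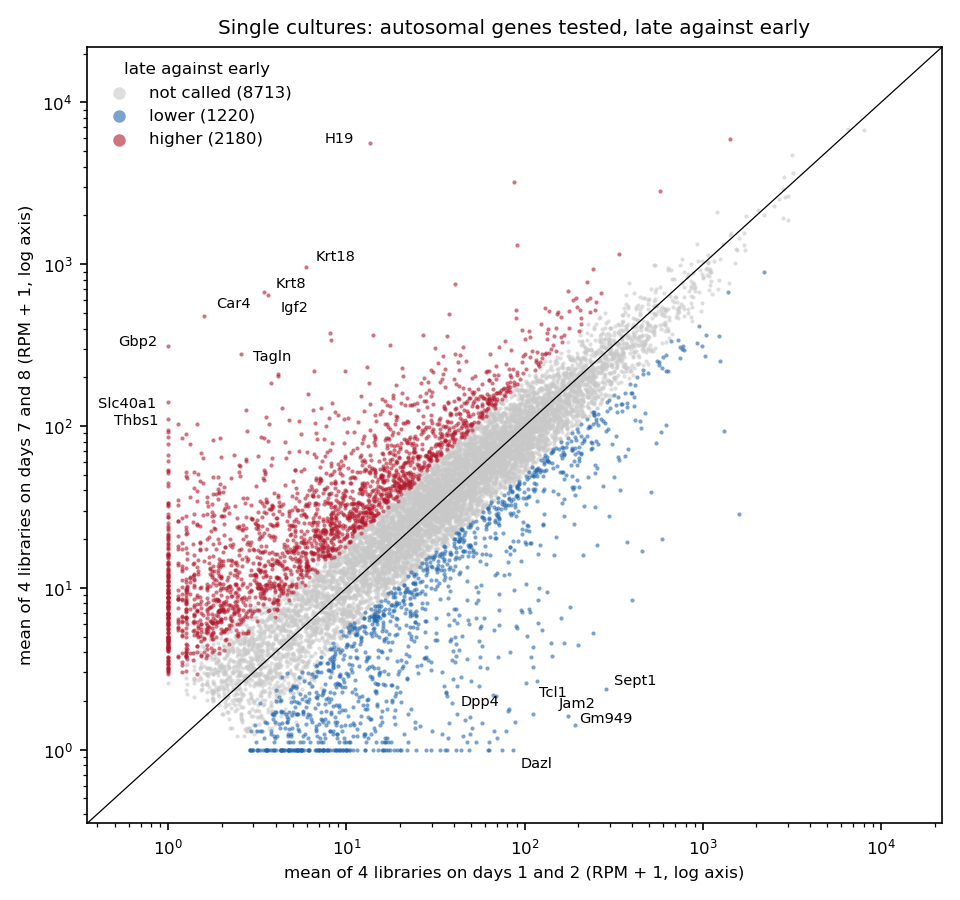
Mean level of each of the 12113 autosomal genes tested in the 4 early (x axis) and 4 late (y axis) single libraries, as RPM + 1 on log axes, coloured by call, with the diagonal marking equal levels. Genes called higher (2180) lie above the diagonal and genes called lower (1220) below it, with H19 farthest above and Gm949, Jam2 and Sept1 far below.

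Called genes were spread over all autosomes. The share of tested genes called higher ran from 14.5% on chromosome 16 to 21.2% on chromosome 15, and the share called lower from 7.9% on chromosome 10 to 12% on chromosome 7.

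The 12 largest rises were led by H19, the maternally expressed imprinted RNA at chr7:142575529-142578143 (mm10), and included Igf2, the paternally expressed growth factor gene beside it at chr7:142650766-142666816. Values per library are given throughout with both X14 days before both X18 days, and the earlier day of each line first. H19 was at 4.71, 25.7, 3.23 and 16.9 RPM early and at 3252, 7775, 3099.6 and 8183 RPM late. In both lines the day 8 library was above the day 7 library, and the lowest late value was far above the highest early one (log2 fold change 9.12 ± 0.58, adjusted p = 3.87e-07, where ± is the SE of the fit). For Igf2 the early libraries had 1.05, 8.55, 0 and 0.994 RPM and the late ones 417, 1432, 186 and 542 RPM (log2 fold change 8.18 ± 0.60, adjusted p = 1.08e-06). Of its 4 early values, that of X14 on day 2 stood apart and in both lines the late value was higher on day 8 than on day 7.

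Krt8 and Krt18, the keratin pair of simple epithelia, lie close together at chr15:101996711-102004342 and chr15:102028216-102032026. Krt8 went from 2.1, 1.55, 1.08 and 4.97 RPM to 516, 868, 316 and 993 RPM (log2 fold change 8.23 ± 0.45, adjusted p = 1.47e-07). Krt18 went from 2.62, 10.9, 1.08 and 4.97 RPM to 721, 1115, 638 and 1355 RPM (log2 fold change 8.02 ± 0.52, adjusted p = 4.32e-07). The pair had the same order among the late libraries, with day 8 above day 7 in each line. Tagln, an actin-binding protein of smooth muscle and of cells under tension, was at 3.14, 0, 1.08 and 1.99 RPM early and 298, 157, 300.4 and 349 RPM late (log2 fold change 7.49 ± 0.41, adjusted p = 1.47e-07).

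Several of the largest rises started from no read at all in the 4 early libraries. Gbp2, an interferon-induced GTPase, reached 364, 306, 252 and 314 RPM, at least 122-fold above the early floor of 3 reads per library. Slc40a1, the iron exporter ferroportin, reached 160.0, 138, 132 and 128 RPM (at least 55.1-fold). These 2 genes varied little among the late libraries. Thbs1, a matrix glycoprotein, was at 111, 108, 147 and 70.2 RPM (at least 43.1-fold), and Anxa3, a membrane-binding annexin, at 95.5, 73.4, 79.6 and 126 RPM (at least 37-fold). Car4, a membrane-anchored carbonic anhydrase, had 3 reads in all early libraries together and 388, 385, 455 and 669.8 RPM late, a ratio of reads of 766-fold (95% exact counting interval 262 to 3717). Pmp22, a membrane protein also abundant in myelin, had 1 early read and 52.2, 96.2, 63.1 and 139 RPM late, a ratio of 437-fold (95% exact counting interval 78 to 17292).

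The 12 largest falls were of the same order of size. Jam2, a junctional adhesion molecule, was at 237, 159, 193 and 173 RPM early and 0, 0.972, 0.717 and 0 RPM late (ratio of reads early over late 356, 95% exact counting interval 121 to 1729, adjusted p = 3.75e-08). Sept1, a septin, fell from 258, 285, 283 and 307 to 0.884, 2.43, 2.15 and 0 RPM (log2 fold change -7.57 ± 0.31, adjusted p = 3.74e-08). In both genes the 4 early values lay within a narrow range and the late values were at or near the floor. Gm949, a gene model without a described role, fell from 175 ± 38 RPM (SD, n = 4) to 0.607 ± 1.21 RPM, and Dpp4, a cell-surface dipeptidase, from 66.6 ± 23 to 0.297 ± 0.595 RPM. No late library held a read of Dazl, Myo1f, Lrrc2 or 2410004A20Rik, whose early means were 84.7 ± 19, 73.5 ± 24.9, 61 ± 4.32 and 62.1 ± 11.5 RPM. Against the late floor these are falls of at least 34.5-, 29.9-, 24.8- and 25.3-fold. The remaining members of the 12 were Tcl1, a co-activator of AKT that belongs to the naive list, Tuba3a, an alpha-tubulin, H2-M5, a class Ib histocompatibility gene, and 1700061G19Rik. The ratio of reads, early over late, was 206-fold (95% exact counting interval 56.7 to 1709) for Tuba3a, 374-fold (95% exact counting interval 66.8 to 14828) for H2-M5 and 335-fold (95% exact counting interval 59.7 to 13283) for 1700061G19Rik.

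All 12 naive pluripotency factors fell, with a median log2 fold change of -4.42. The 4 late libraries were wholly below the 4 early ones in each, against 14.2% of all genes tested. For this and every later list, the shares over all genes tested are 18% called higher and 10.1% called lower. Tcl1 was at 105, 113, 76.5 and 145 RPM early and at 2.65, 0, 0 and 0 RPM late, with 3 late reads in all (ratio of reads early over late 199, 95% exact counting interval 67.7 to 967, adjusted p = 6.80e-07). Nr5a2, a nuclear receptor that activates Pou5f1, went from 76, 55.2, 41 and 37.8 to 0, 0.486, 0 and 0 RPM (ratio of reads early over late 309, 95% exact counting interval 55 to 12239, adjusted p = 5.61e-07). Prdm14, which restrains FGF signalling and DNA methyltransferases in naive cells, went from 52.4, 41.2, 38.8 and 30.8 to 0, 1.46, 0 and 1.19 RPM (log2 fold change -5.37 ± 0.36, adjusted p = 5.58e-07). Late values of these 3 genes were at 0 or within a few reads of it. Between early and late the fall was less deep for Nanog, which was at 1421, 897, 1608 and 1079 RPM early and at 263, 202, 269.6 and 264 RPM late (log2 fold change -2.30 ± 0.18, adjusted p = 1.70e-06). Its late level followed a lower one, since Nanog was at 36.9 RPM in X14 and 57.7 RPM in X18 on day 4. On day 6 Nanog was at 301 and 343 RPM. The fall was deep for Esrrb, at 792, 634, 396 and 544 and then 23, 23.8, 20.1 and 9.52 RPM (log2 fold change -4.99 ± 0.23, adjusted p = 5.06e-08). Klf4, Klf2, Tfcp2l1 and Tbx3 fell too, with log2 fold changes between -5.10 and -3.62.

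Genes shared by naive and primed pluripotent cells fell less. Of 12 on the list, 7 fell and none rose, with a median of -2.08. Pou5f1, the factor OCT4, was at 979.5, 1015, 1554 and 1367 RPM early and 398, 229.8, 437 and 368 RPM late (log2 fold change -1.79 ± 0.17, adjusted p = 7.10e-06), and Sox2 at 401, 413, 305 and 397 and 64.5, 64.6, 103 and 54.7 RPM (log2 fold change -2.44 ± 0.19, adjusted p = 1.91e-06). Neither was lost in any late library. The largest falls were of Dppa2, a chromatin factor of early embryos, from 101, 64.5, 168 and 70.6 to 0, 3.4, 2.87 and 0 RPM (log2 fold change -5.79 ± 0.47, adjusted p = 2.25e-06), of Dppa5a, an RNA-binding protein, from 1311 ± 645 to 92.8 ± 55.2 RPM (SD, n = 4), and of Gdf3, a TGF-beta family ligand, from 145 ± 29.7 to 15 ± 5.16 RPM. Sall4, Utf1, Dppa3, Tdgf1 and Rif1 were not called, with log2 fold changes between -0.80 and -0.29. For Tdgf1, Sall4 and Rif1 only the size of the fall was short of the rule (adjusted p = 0.0038, 0.013 and 0.021). In Tdgf1 the late libraries lay wholly below the early ones. Utf1 and Dppa3 had an adjusted p of 0.16 and 0.45.

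**Figure D2:**
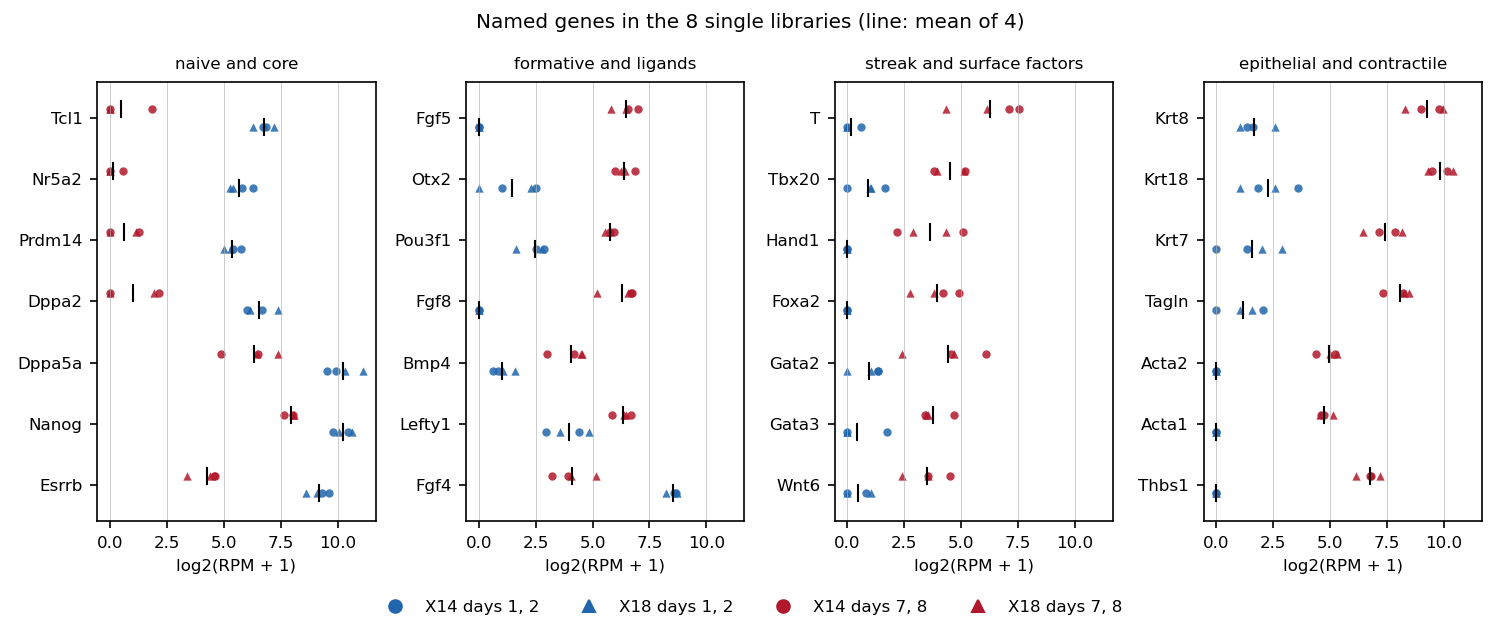
Level of 28 genes in each of the 8 single libraries as log2(RPM + 1), early in blue and late in red, circles for X14 and triangles for X18, with a black line at the mean of each 4. The genes were picked with their values known, so that the blue and red points do not overlap in any of them reflects the choice. Of all genes tested, 21.5% lie wholly above and 14.2% wholly below. Fgf5, Fgf8, Hand1, Foxa2, Acta2, Acta1 and Thbs1 are at 0 in all early libraries.

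Germline genes, which act in germ cells and are partly expressed in hypomethylated naive mESCs, fell together: of 11 listed, 10 were tested, 8 fell and 1 rose. Dazl, an RNA-binding protein of germ cells, was at 112, 84.7, 69 and 73.6 RPM early and had no late read. Stra8, a gatekeeper of meiosis, was at 36.1, 13.2, 62.5 and 26.8 RPM early and also had no late read, a fall of at least 14.1-fold. Piwil2, a protein of the piRNA pathway that silences transposons, fell from 40.9, 43.5, 12.9 and 27.8 to 4.42, 5.83, 3.58 and 1.19 RPM (log2 fold change -3.13 ± 0.44, adjusted p = 1.33e-04). The exception was Sycp3, a component of the meiotic chromosome axis, which rose from 12, 4.66, 15.1 and 10.9 to 30.1, 12.1, 36.6 and 30.9 RPM with overlap between the groups (log2 fold change 1.37 ± 0.33, adjusted p = 0.0053), and whose call was lost without X18 (adjusted p = 0.071). Promoters are shown here because 3 of the 7 fallen germline genes with a RefSeq promoter window (GRCm38.p6, 250 bases before to 50 bases after the start) held the E-box CACGTG, against 10.46% of the 8355 tested genes with such a window. The windows of Mael, a piRNA pathway protein, and Slc25a31, a testis ADP/ATP carrier, are printed 5′ to 3′ with CACGTG, which reads the same on both strands, in capitals. Both were picked after the motif search. A match describes the letters in the window and not a bound factor.
Mael, chr1:166238695-166238994, minus strand: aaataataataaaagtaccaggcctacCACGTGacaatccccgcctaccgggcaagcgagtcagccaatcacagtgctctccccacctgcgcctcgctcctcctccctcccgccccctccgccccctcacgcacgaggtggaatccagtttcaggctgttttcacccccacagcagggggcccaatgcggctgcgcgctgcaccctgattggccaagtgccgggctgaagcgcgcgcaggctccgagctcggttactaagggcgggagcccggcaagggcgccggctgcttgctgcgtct
Slc25a31, chr3:40708621-40708920, plus strand: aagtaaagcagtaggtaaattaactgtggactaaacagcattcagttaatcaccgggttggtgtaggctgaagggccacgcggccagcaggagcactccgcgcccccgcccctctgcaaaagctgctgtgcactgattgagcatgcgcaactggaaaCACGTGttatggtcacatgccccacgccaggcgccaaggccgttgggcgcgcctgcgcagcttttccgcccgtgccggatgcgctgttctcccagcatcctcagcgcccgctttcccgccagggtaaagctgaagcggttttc
Mael fell by 2.81 and Slc25a31 fell by 1.84 on the log2 scale, the latter on 19 reads in all.

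Formative and primed genes moved in both directions: of 11, 6 rose, 2 fell and 3 were not called, with a median of 1.13. Fgf5, a ligand of the postimplantation epiblast, had no early read and reached 128, 92.8, 55.9 and 88 RPM late (at least 36.1-fold). Otx2, a homeodomain factor that redirects OCT4 binding, went from 1.05, 4.66, 0 and 3.98 to 115, 61.7, 83.9 and 74.9 RPM (log2 fold change 5.29 ± 0.52, adjusted p = 8.97e-06), and Pou3f1, a POU factor of the same state, from 6.29, 4.66, 2.16 and 5.96 to 53, 59.8, 45.9 and 53.5 RPM (log2 fold change 3.58 ± 0.33, adjusted p = 5.43e-06). Late values of Pou3f1 lay within a narrow range. Foxd3, a forkhead factor of pluripotent cells, fell from 18.3, 14.8, 17.2 and 17.9 to 1.77, 1.94, 0 and 2.38 RPM (log2 fold change -3.49 ± 0.43, adjusted p = 5.81e-05), and Etv4, an ETS factor downstream of FGF, from 39.3, 52.1, 35.6 and 29.8 to 10.6, 5.34, 3.58 and 5.95 RPM (log2 fold change -2.70 ± 0.31, adjusted p = 3.01e-05). The de novo methyltransferase Dnmt3b rose (log2 fold change 1.13 ± 0.32, adjusted p = 0.014), whereas Dnmt3a (-0.31 ± 0.34), Zic2 (0.02 ± 0.24) and Zic5 (-0.16 ± 0.26) were not called.

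Ligands of the FGF family exchanged places. Fgf4, the autocrine ligand of naive mESCs, fell from 379.8, 411, 297 and 413 to 14.1, 8.26, 34.4 and 15.5 RPM (log2 fold change -4.56 ± 0.31, adjusted p = 5.93e-07). Fgf8, a ligand of the primitive streak, had no early read and was at 103, 106, 35.1 and 94 RPM late (at least 33.4-fold). Both receptors on the list rose, Fgfr1 by 1.24 ± 0.22 and Fgfr2 by 2.24 ± 0.33. Of the 12 FGF and ERK response genes, 8 rose and 2 fell, with a median of 1.76, or 1.38 with genes that had no read in a group set at the floor. Among those that rose were Dusp4, a phosphatase of ERK, from 1.05, 4.66, 0 and 0 to 31.8, 30.1, 22.2 and 20.2 RPM (log2 fold change 4.16 ± 0.46, adjusted p = 2.17e-05), and Fos, an immediate early gene, from 0.524, 2.33, 0 and 0.994 to 7.96, 18.9, 5.02 and 10.7 RPM (log2 fold change 3.19 ± 0.54, adjusted p = 5.46e-04). Etv5, an ETS factor, fell from 332, 376, 179 and 217 to 132, 105, 109 and 80.9 RPM (log2 fold change -1.33 ± 0.17, adjusted p = 7.23e-05), while the feedback inhibitors Spry2 (-0.67 ± 0.20) and Spry4 (0.86 ± 0.68) were not called.

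In the LIF pathway, the receptor gene Lifr fell from 61.8, 73.1, 20.5 and 52.7 to 15.9, 18, 12.2 and 15.5 RPM (log2 fold change -1.62 ± 0.38, adjusted p = 0.0047), though not without X14 (adjusted p = 0.24). The feedback inhibitor Socs3 fell from 128, 166, 144 and 206 to 48.6, 65.1, 35.8 and 54.7 RPM (log2 fold change -1.67 ± 0.21, adjusted p = 6.26e-05), and Bcl3, a co-regulator of NF-kappaB induced by STAT3, from 42.2 ± 17.5 to 11.5 ± 1.67 RPM (SD, n = 4). Junb, an AP-1 subunit, rose from 9.43, 7, 3.23 and 2.98 to 24.8, 29.2, 18.6 and 25 RPM (log2 fold change 2.26 ± 0.29, adjusted p = 6.50e-05). The kinase Jak1 rose by 1.10 ± 0.26 and lost its call under 5 of 23 settings. Stat3 (-0.25 ± 0.24) and Il6st (-0.16 ± 0.22), the shared receptor subunit, were not called, so 2 of 9 listed members rose and 3 fell (8 tested).

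Nodal pathway genes rose in 5 of 10 cases and fell in 1. Nodal itself was at 75.8 ± 23.1 RPM early and 92.1 ± 9.85 RPM late and was not called (log2 fold change 0.32 ± 0.19, adjusted p = 0.2). Lefty1, a target and inhibitor of Nodal, rose from 6.81, 20.2, 10.8 and 27.8 to 101, 56.8, 82.5 and 86.8 RPM (log2 fold change 2.49 ± 0.36, adjusted p = 1.74e-04). Proprotein convertases that cleave the Nodal precursor moved in opposite directions. Furin rose from 34.6, 21, 11.9 and 18.9 to 72.5, 117, 69.5 and 52.3 RPM (log2 fold change 1.89 ± 0.31, adjusted p = 4.86e-04), and Pcsk6 fell from 149.8, 94.8, 61.4 and 71.6 to 4.42, 5.34, 7.17 and 8.33 RPM (log2 fold change -3.86 ± 0.35, adjusted p = 4.63e-06).

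BMP pathway genes rose in 7 of 11 listed cases (9 tested) with none falling (median 2.40). The ligand genes Bmp7 and Bmp4 rose from 5.24, 3.89, 2.16 and 0 to 55.7, 61.2, 51.6 and 79.7 RPM (log2 fold change 4.61 ± 0.44, adjusted p = 7.67e-06) and from 0.524, 0.777, 1.08 and 1.99 to 7.07, 17, 22.2 and 21.4 RPM (log2 fold change 4.00 ± 0.41, adjusted p = 1.37e-05). Id1, a direct BMP target that blocks basic helix-loop-helix factors, rose from 0.524, 2.33, 0 and 3.98 to 17.7, 39.4, 12.9 and 60.7 RPM (log2 fold change 4.2 ± 0.62, adjusted p = 1.93e-04), and in each line it was higher on day 8 than on day 7. Before that, Id1 was at 58.2 and 58.3 RPM (X14 and X18) on day 4 and at 74.1 and 59.1 RPM on day 5. By day 6 it was down to 29.6 and 28.5 RPM. Id2 and Id3 rose by 1.73 ± 0.24 and 2.40 ± 0.53.

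Wnt target genes were mixed, with 4 of 11 listed genes higher and 2 lower (9 tested). Sp5, a direct target, rose from 0.524, 0, 0 and 0 to 34.5, 29.6, 2.15 and 13.1 RPM (ratio of reads late over early 108, 95% exact counting interval 19 to 4295, adjusted p = 5.53e-04); its late level in X14 was above that in X18, and without X14 the adjusted p was 0.088. Tcf7, a mediator of Wnt signals, rose from 66.5, 50.5, 32.3 and 43.7 to 121, 103, 157 and 76.1 RPM (log2 fold change 1.24 ± 0.24, adjusted p = 0.0012), a call lost under 2 of 23 settings. Axin2, the feedback inhibitor, overlapped between the groups and lost its call under 4 of 23 settings (log2 fold change 1.19 ± 0.30, adjusted p = 0.0076). Notum, a secreted Wnt deacylase, fell from 42.4, 37.3, 42 and 36.8 to 0.884, 8.26, 0.717 and 5.95 RPM (log2 fold change -4.07 ± 0.70, adjusted p = 5.98e-04), and Lef1, another nuclear mediator, from 28.3, 77, 21.6 and 58.6 to 8.84, 11.7, 5.74 and 3.57 RPM (log2 fold change -2.59 ± 0.47, adjusted p = 8.93e-04).

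Of 12 retinoic acid genes only 6 passed the filter, of which 3 rose and 2 fell. Among those that rose, Dhrs3, a retinal reductase, went from 5.24, 1.55, 0 and 1.99 to 17.7, 18.5, 36.6 and 20.2 RPM (log2 fold change 3.48 ± 0.51, adjusted p = 1.83e-04), and Rdh10, a retinol dehydrogenase, rose by 2.49 ± 0.39 on the log2 scale. Crabp1, which binds retinoic acid, fell from 13.6, 8.55, 16.2 and 20.9 to 1.77, 0.486, 0.717 and 0 RPM (log2 fold change -3.97 ± 0.41, adjusted p = 1.40e-05). YAP target genes, which respond to cell spreading and tension, rose in 6 of 10 listed cases (8 tested) with none falling (median 2.26, or 1.97 with genes without reads at the floor). Cyr61, a matricellular protein, rose from 26.2, 33.4, 20.5 and 37.8 to 250.2, 175, 245 and 192 RPM (log2 fold change 2.89 ± 0.21, adjusted p = 8.42e-07), the receptor kinase Axl from 1.05, 2.33, 0 and 0 to 19.4, 20.9, 13.6 and 11.9 RPM (log2 fold change 3.73 ± 0.42, adjusted p = 2.90e-05), and Lats2, a kinase that restrains YAP, from 6.97 ± 2.76 to 36.8 ± 10.8 RPM (SD, n = 4).

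Regulators of mesoderm appeared in part. Of 18 primitive streak and mesoderm factors, 6 passed the filter and 4 rose, and 5 had no read in the 8 libraries. T (Brachyury), the mesoderm factor of the streak, was at 0.524, 0, 0 and 0 RPM early and 137, 183, 19.4 and 69 RPM late, with 1 early read in all (ratio of reads late over early 583, 95% exact counting interval 104 to 23080.5, adjusted p = 2.77e-06). Its late values in X14 were above those in X18. Tbx20 rose from 2.1, 0, 1.08 and 0.994 to 34.5, 13.1, 33.7 and 14.3 RPM (log2 fold change 4.27 ± 0.54, adjusted p = 6.19e-05), and Hand1, a factor of extraembryonic mesoderm and trophoblast, had no early read and 3.54, 32.6, 6.45 and 19 RPM late (at least 6.09-fold). Eomes, a T-box factor of streak and trophoblast, rose by 2.91 ± 0.46. Mixl1, Mesp1, Tbx6, Msgn1, Foxf1 and Pdgfra were among the 12 below the filter.

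Among 11 endoderm factors, Foxa2, a pioneer factor of definitive endoderm and axial mesoderm, had no early read and 29.2, 17.5, 5.74 and 13.1 RPM late (at least 6.47-fold), and Sox7 fell by 2.84 on the log2 scale. Sox17, Gata6, Hnf4a and Foxa1 did not pass the filter. Of 14 visceral endoderm transport genes, 5 passed. The endocytic pair Dab2 and Lrp2 rose, Dab2 from 1.05, 0, 1.08 and 1.99 to 39.8, 47.6, 42.3 and 23.8 RPM (log2 fold change 5.05 ± 0.47, adjusted p = 5.68e-06) and Lrp2 (megalin) from 11.5, 23.3, 1.08 and 13.9 to 193, 169, 307 and 70.2 RPM (log2 fold change 4.35 ± 0.76, adjusted p = 6.63e-04), whereas the apolipoprotein gene Apoa2 fell from 14.7, 14.8, 30.2 and 16.9 to 0, 1.94, 0.717 and 1.19 RPM (log2 fold change -4.09 ± 0.35, adjusted p = 3.07e-06). Afp, Ttr and Apoa1, secreted products that define that tissue, did not pass the filter.

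Trophoblast and surface ectoderm factors rose in 7 of 16 listed cases (11 tested), with none falling. Gata2 went from 1.57, 1.55, 1.08 and 0 to 22.1, 66.1, 4.3 and 25 RPM (log2 fold change 4.01 ± 0.58, adjusted p = 1.87e-04), Gata3 from 0, 2.33, 0 and 0 to 9.72, 24.3, 10 and 10.7 RPM (ratio of reads late over early 26.5, 95% exact counting interval 8.75 to 131, adjusted p = 2.19e-04) and Wnt6, a ligand of surface ectoderm, from 0, 0.777, 1.08 and 0 to 10.6, 21.4, 4.3 and 10.7 RPM (ratio of reads late over early 33.6, 95% exact counting interval 8.96 to 283, adjusted p = 1.38e-04). Gata2 and Wnt6 had their highest value in X14 on day 8 and their lowest late value in X18 on day 7. Cdx2, a trophectoderm and posterior factor, rose from no early read to 5.63 ± 6.15 RPM (SD, n = 4), while Tfap2c (0.23 ± 0.24) and Tead4 (-0.21 ± 0.37) were not called and Elf5, which marks trophoblast stem cells, did not pass the filter. The median of 2.32 became 1.39 with genes without reads at the floor.

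Neural genes moved in both directions, and few blood, endothelial and heart genes passed the filter. The summed level of 5 neural stem markers (Sox1, Pax6, Nes, Fabp7 and Hes5) was 29.1 to 43.5 RPM in the early libraries and 45.2 to 113 RPM in the late ones. The rise of this sum was that of Nes, at a mean of 20.7 RPM early and 69.5 RPM late. Pax6 went the other way, from 14.6 to 9.23 RPM, and was not called (log2 fold change -0.74 ± 0.44). Of 16 neural genes, 7 passed, 1 rose and 3 fell. Nes, the intermediate filament nestin, which is not confined to neural cells, rose from 16.2, 23.3, 17.2 and 25.8 to 99, 64.6, 73.9 and 40.4 RPM (log2 fold change 1.71 ± 0.31, adjusted p = 8.99e-04), though the adjusted p was 0.097 without X14. Tubb3, a neuronal tubulin also present in naive mESCs, fell from 105, 115, 111 and 138 to 24.8, 14.1, 10 and 11.9 RPM (log2 fold change -3.03 ± 0.24, adjusted p = 1.58e-06), and Ncam1 from 26.2, 28.8, 6.47 and 13.9 to 0, 6.32, 0.717 and 1.19 RPM (log2 fold change -3.49 ± 0.60, adjusted p = 6.09e-04). Sox1, Fabp7 and Hes5 had at most 2 reads in any of the 8 libraries. Of 11 blood and endothelial genes, only Pecam1, an adhesion molecule that mESCs also carry, and Tek, a receptor kinase, passed. Pecam1 fell from 130.4, 123, 69 and 110.3 to 2.65, 4.37, 1.43 and 2.38 RPM (log2 fold change -5.39 ± 0.32, adjusted p = 2.52e-07) and Tek from 17.8 ± 8.24 to 1.14 ± 1.17 RPM (SD, n = 4). Nkx2-5 and Tnnt2, which define heart muscle, had no read in any of the 8 libraries. Of 39 Hox genes, 31 had no read in these libraries and 2 passed the filter.

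Epithelial genes formed the group with the highest median among all lists tested (3.64). Of 14 simple epithelial genes, 13 rose and none fell, against 18% and 10.1% of all genes tested. All 14 had the late libraries wholly above the early ones, against 21.5% of all genes tested. Krt7, a keratin of simple epithelia and trophoblast, rose from 1.57, 0, 6.47 and 2.98 to 139, 229.8, 86 and 283 RPM (log2 fold change 6.28 ± 0.57, adjusted p = 4.74e-06). Dsp, the desmosomal plaque protein, rose by 6 ± 0.34, Krt19 by 6.15 ± 0.63, and the claudins Cldn6 and Cldn7 by 4.41 ± 0.31 and 4.44 ± 0.24. Cdh1, E-cadherin, which naive mESCs already express, was at 534 ± 119.6 RPM early and 992 ± 136 RPM late (SD, n = 4) and was the member not called, since its change stayed under 1 on the log2 scale (log2 fold change 0.91 ± 0.14, adjusted p = 2.86e-04).

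Mesenchymal genes moved in both directions: of 14 listed, 9 were tested, 5 rose and 3 fell. Lgals1, a galectin of mesenchymal cells, rose from 24.1, 31.9, 58.2 and 27.8 to 250.2, 374, 219 and 590.0 RPM (log2 fold change 3.31 ± 0.30, adjusted p = 5.07e-06), Cav1, the caveolae protein, from no early read to 13.3, 12.1, 14.3 and 8.33 RPM (at least 4.75-fold), and Cdh2, N-cadherin, from 3.67, 0, 0 and 0 to 21.2, 23.3, 5.74 and 5.95 RPM (log2 fold change 3.22 ± 0.57, adjusted p = 7.35e-04). Zeb1, a repressor of E-cadherin, fell from 38.8, 24.1, 12.9 and 8.95 to 0, 1.94, 0.717 and 0 RPM (log2 fold change -4.12 ± 0.51, adjusted p = 5.27e-05). Fn1, fibronectin, fell from 1078, 984, 344 and 653 to 312, 484, 275 and 125 RPM with overlap between the groups (log2 fold change -1.38 ± 0.26, adjusted p = 0.0012), and without X14 the adjusted p was 0.058. Vim, vimentin, fell by 1.26. With a filter of 10 mean RPM the median turned from 2.37 to -1.26.

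Contractile genes rose almost throughout, with 12 of 14 listed higher and none lower (13 tested, median 3.32). Besides Tagln, the smooth muscle actin gene Acta2 had no early read and 36.2, 19.9, 30.8 and 38.1 RPM late (at least 12.4-fold), and the skeletal actin gene Acta1 had no early read and 23, 25.8, 33.7 and 22.6 RPM late (at least 10.4-fold). Actin genes share sequence, so reads could be split between them. Cnn1 and Cnn2, the calponins, rose by 4.11 ± 0.45 and 3.32 ± 0.15, Tpm1 and Tpm2, the tropomyosins, by 3.89 ± 0.17 and 3.20 ± 0.26, and Myl9, a myosin light chain, by 2.90 ± 0.52. Des, the muscle intermediate filament, was not called (-0.02 ± 0.40). The CArG box, which serum response factor binds, was in the RefSeq window of 4 of the 11 risen contractile genes that have one, against 1.24% of the 8355 tested genes with a window. The windows of 3 of these 4, picked after the search, follow 5′ to 3′ with the CArG box, whose pattern is the same on both strands, in capitals.
Acta1, chr8:123894726-123895025, minus strand: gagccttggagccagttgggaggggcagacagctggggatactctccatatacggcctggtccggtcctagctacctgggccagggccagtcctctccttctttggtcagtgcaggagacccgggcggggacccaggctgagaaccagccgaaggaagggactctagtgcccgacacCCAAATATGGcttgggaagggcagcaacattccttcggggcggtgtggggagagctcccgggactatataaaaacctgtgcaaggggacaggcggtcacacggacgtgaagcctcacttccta
Cnn2, chr10:79988350-79988649, plus strand: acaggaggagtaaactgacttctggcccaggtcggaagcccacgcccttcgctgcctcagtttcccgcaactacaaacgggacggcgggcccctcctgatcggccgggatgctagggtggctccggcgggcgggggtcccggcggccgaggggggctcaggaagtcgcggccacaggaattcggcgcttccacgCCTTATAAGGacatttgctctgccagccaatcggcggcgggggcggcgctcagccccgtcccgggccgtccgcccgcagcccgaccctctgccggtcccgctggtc
Myl9, chr2:156775214-156775513, plus strand: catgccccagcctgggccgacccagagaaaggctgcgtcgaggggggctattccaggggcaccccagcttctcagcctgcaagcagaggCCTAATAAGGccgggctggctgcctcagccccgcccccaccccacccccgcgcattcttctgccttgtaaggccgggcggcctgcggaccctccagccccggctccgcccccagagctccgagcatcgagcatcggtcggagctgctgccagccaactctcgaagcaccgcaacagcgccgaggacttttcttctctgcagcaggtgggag
Counted from the start of transcription, the box lies at position -73 in Acta1, -56 in Cnn2 and -161 in Myl9. The remaining holder was Actc1, at position -47, which rose on only 18 late reads.

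Genes of the interstitial matrix rose with them: 9 of 10 tested of 15 listed, none lower. Col1a2, a chain of type I collagen, had no early read and 10.6, 52.5, 7.17 and 26.2 RPM late (at least 9.53-fold), with higher values on day 8 than on day 7 in both lines. Loxl2, a collagen crosslinking enzyme, rose from 3.14, 10.1, 1.08 and 7.95 to 72.5, 75.8, 65.2 and 51.2 RPM (log2 fold change 4.01 ± 0.57, adjusted p = 1.55e-04), and Col1a1 from 2.23 ± 1.13 to 12 ± 6.82 RPM (SD, n = 4), with an adjusted p of 0.0034, or 0.096 without X14. Of 7 markers of fibroblasts or feeder cells, the summed level was 3.98 to 6.47 RPM early and 23.9 to 77.3 RPM late, 5 were without a read early, and Col3a1, Postn, Lox and S100a4 were at 0 or within 4 reads in every late library. The study describes the derivation of Xmas mESCs as feeder-free, and the part of fibroblasts in the matrix values was not tested.

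Basement membrane genes moved in both directions. The type IV collagen genes Col4a1 and Col4a2 rose from 29.3, 41.2, 6.47 and 22.9 to 144, 251, 103 and 109 RPM (log2 fold change 2.79 ± 0.37, adjusted p = 9.18e-05) and from 11, 22.5, 4.31 and 15.9 to 103, 198, 68.8 and 94 RPM (log2 fold change 3.23 ± 0.42, adjusted p = 7.62e-05). Of the laminin chains, Lamb1 rose from 70.8 ± 31.5 to 305 ± 87.3 RPM (SD, n = 4), Lama5 rose by 1.78 ± 0.32, Lama1 fell from 46.6, 52.9, 10.8 and 31.8 to 0, 1.94, 1.43 and 1.19 RPM (log2 fold change -4.57 ± 0.55, adjusted p = 4.26e-05), and Lamc1 was not called (-0.32 ± 0.27). Nid1, a linker of the 2 networks, fell from 389, 274, 90.5 and 148 to 46.9, 81.6, 35.1 and 25 RPM (log2 fold change -2.18 ± 0.25, adjusted p = 3.04e-05). In all, 6 of 12 listed rose and 2 fell (11 tested).

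Imprinted genes rose in 10 of 18 listed cases (17 tested) and none fell (median 1.93). Besides H19 and Igf2, Peg10, a retrotransposon-derived gene needed in placenta, rose from 57.1, 179.6, 21.6 and 84.5 to 2539, 6442, 1811 and 2015 RPM (log2 fold change 5.40 ± 0.44, adjusted p = 2.15e-06), and its neighbour Sgce by 5.12 ± 0.38. Nnat rose by 4.63 ± 0.31, Cdkn1c, a CDK inhibitor, by 3.89 ± 0.49, and Phlda2, a growth restrainer of the placenta, by 2.15 ± 0.29. Igf2r (0.39 ± 0.26), Grb10 (0.30 ± 0.27) and Plagl1 (-0.66 ± 0.37) were not called. Parental alleles were not resolved in these data.

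Enzymes that oxidise 5-methylcytosine diverged. Tet1 fell from 461, 509, 92.7 and 197 to 51.3, 56.4, 53.1 and 28.6 RPM (log2 fold change -2.48 ± 0.35, adjusted p = 1.47e-04), with a lower early level in X18 than in X14 and an adjusted p of 0.057 without X14, and Tet2 fell from 150.3, 131, 64.7 and 59.6 to 7.96, 15.1, 11.5 and 3.57 RPM (log2 fold change -3.48 ± 0.40, adjusted p = 3.44e-05). Tet3 rose from 12, 12.4, 4.31 and 8.95 to 25.6, 36.4, 20.1 and 9.52 RPM with overlap (log2 fold change 1.24 ± 0.43, adjusted p = 0.037), a call lost under 11 of 23 settings. Gadd45b, a stress response gene, rose from 29.9, 25.7, 60.4 and 42.7 to 80.4, 65.1, 112 and 102 RPM (log2 fold change 1.23 ± 0.16, adjusted p = 7.41e-05). Dnmt1 (-0.26 ± 0.19) and Uhrf1 (-0.91 ± 0.13), which maintain methylation, were not called. The fall of Uhrf1 was large against its SE but stayed under the minimum of 1 on the log2 scale. In the let-7 axis, the RNA-binding protein Lin28a rose from 181, 313, 109.9 and 205 to 578, 551, 538 and 414 RPM (log2 fold change 1.45 ± 0.22, adjusted p = 2.76e-04) and the let-7 target Hmga2 from 8.38, 11.7, 3.23 and 8.95 to 62.8, 71.4, 33.7 and 45.2 RPM (log2 fold change 2.81 ± 0.37, adjusted p = 9.63e-05). Lin28b rose by 1.29 ± 0.44 but lost its call under 10 of 23 settings.

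Of 12 proliferation genes, 2 rose (16.7%) and 1 fell (8.3%), near the 18% higher and 10.1% lower of all genes tested. The late libraries lay wholly below the early ones for 4 of the 12 (14.2% of all genes tested) and wholly above for 1 (21.5%). The 9 not called included Top2a (0.08 ± 0.17), Ccnb1 (-0.02 ± 0.15), Cdk1 (0.06 ± 0.15) and Pcna (-0.64 ± 0.17). Within the MYC family, Mycn fell from 127, 199.8, 117 and 187 to 52.2, 61.2, 42.3 and 47.6 RPM (log2 fold change -1.61 ± 0.20, adjusted p = 5.15e-05) and Myc rose from 2.1, 6.22, 0 and 1.99 to 23.9, 45.7, 5.74 and 13.1 RPM, with the late value of X18 on day 7 below the early value of X14 on day 2 (log2 fold change 2.92 ± 0.48, adjusted p = 4.20e-04). Mycn stayed above Myc in each late library, with late means of 50.8 and 22.1 RPM. Mki67 rose by 1.05 ± 0.29 and lost its call under 6 of 23 settings. Cdkn1b, the CDK inhibitor p27, rose from 39.3, 31.1, 43.1 and 14.9 to 103, 84.1, 136 and 112 RPM (log2 fold change 1.85 ± 0.31, adjusted p = 5.61e-04). Of 11 G1 cyclins and CDK inhibitors tested, 2 rose (18.2%, near the 18% of all genes tested) and 9 were not called. The late libraries lay wholly below the early ones for 4 of the 11 and wholly above for 2. Of 10 p53 targets, 2 rose (20%), 1 fell (10%) and 7 were not called, again near the shares of calls over all genes tested. The late libraries lay wholly above the early ones for 5 of these 10 (21.5% of all genes tested) and wholly below for 1. Perp, a desmosomal and apoptotic membrane protein, rose from 16.8, 17.9, 25.9 and 25.8 to 125, 115, 122 and 174 RPM (log2 fold change 2.64 ± 0.16, adjusted p = 2.52e-07), Bbc3 rose by 1.25 ± 0.26, and Sesn2 fell by 1.18 with the call lost under 2 of 23 settings.

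Of 16 glycolysis genes, 4 rose (25%) and 1 fell (6.2%), against 18% and 10.1% of all genes tested. The glucose transporters Slc2a1 and Slc2a3 rose from 462, 594, 491 and 738 to 2633, 3044, 2727 and 2974 RPM (log2 fold change 2.34 ± 0.16, adjusted p = 7.04e-07) and from 1767, 1445, 1061 and 1397 to 6587, 5959.8, 6498 and 4794 RPM (log2 fold change 2.08 ± 0.16, adjusted p = 1.34e-06). Slc16a3, the lactate exporter, rose from 92.2, 165, 123 and 167 to 521, 501, 508 and 526 RPM (log2 fold change 1.95 ± 0.18, adjusted p = 6.55e-06). Pfkp, a phosphofructokinase, fell from 522, 668, 373 and 615 to 92.8, 89.4, 71 and 57.1 RPM (log2 fold change -2.80 ± 0.19, adjusted p = 5.61e-07), and 11 of 16 glycolysis genes, Ldha (0.10 ± 0.17) among them, were not called. Gapdh had only 90 reads in the 8 libraries together, and the cause was not tested.

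Threonine, serine and one-carbon genes fell in 7 of 12 cases and none rose (median -1.14). Tdh, threonine dehydrogenase, on which mouse pluripotent cells depend, fell from 418, 337, 562 and 279 to 2.65, 12.1, 6.45 and 8.33 RPM (log2 fold change -5.90 ± 0.39, adjusted p = 4.57e-07). Psat1 and Shmt2, enzymes of serine and glycine synthesis, fell from 1033 ± 170.3 to 269.9 ± 66 RPM and from 409.8 ± 58.1 to 132 ± 24.6 RPM (SD, n = 4). Phgdh, the first enzyme of serine synthesis, was not called (-0.28 ± 0.14).

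Few ribosomal and respiratory genes were called. Of 77 cytosolic ribosomal protein genes tested, 6 fell (7.8%, against 10.1% of all genes tested) and none rose, with a median of -0.18. The largest of these falls were of the paralogues Rpl10l, from 69.1, 59.1, 108 and 85.5 to 0, 2.43, 0.717 and 0 RPM (log2 fold change -6.15 ± 0.36, adjusted p = 2.35e-07), and Rpl39l, from 37.2, 33.4, 75.4 and 46.7 to 0, 0, 0 and 2.38 RPM (ratio of reads early over late 122, 95% exact counting interval 33.4 to 1015, adjusted p = 4.64e-07), both known from testis and both close copies of another gene, so that reads could be shared. Of 69 respiratory chain genes tested, 6 fell (8.7%) and none rose (median -0.42), with Atp5g1 from 50 ± 8.33 to 15.7 ± 2.55 RPM and Cox5a from 400.4 ± 133 to 158 ± 35.2 RPM (SD, n = 4). Of 12 lysosome genes, Hexa, a hexosaminidase, rose from 63.4, 38.1, 67.9 and 71.6 to 139.7, 112, 194 and 178 RPM (log2 fold change 1.38 ± 0.17, adjusted p = 4.76e-05) and 11 were not called. The late libraries lay wholly above the early ones for 7 of the 12 (21.5% of all genes tested) and wholly below for 1, and the median log2 fold change was 0.55.

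**Figure D3:**
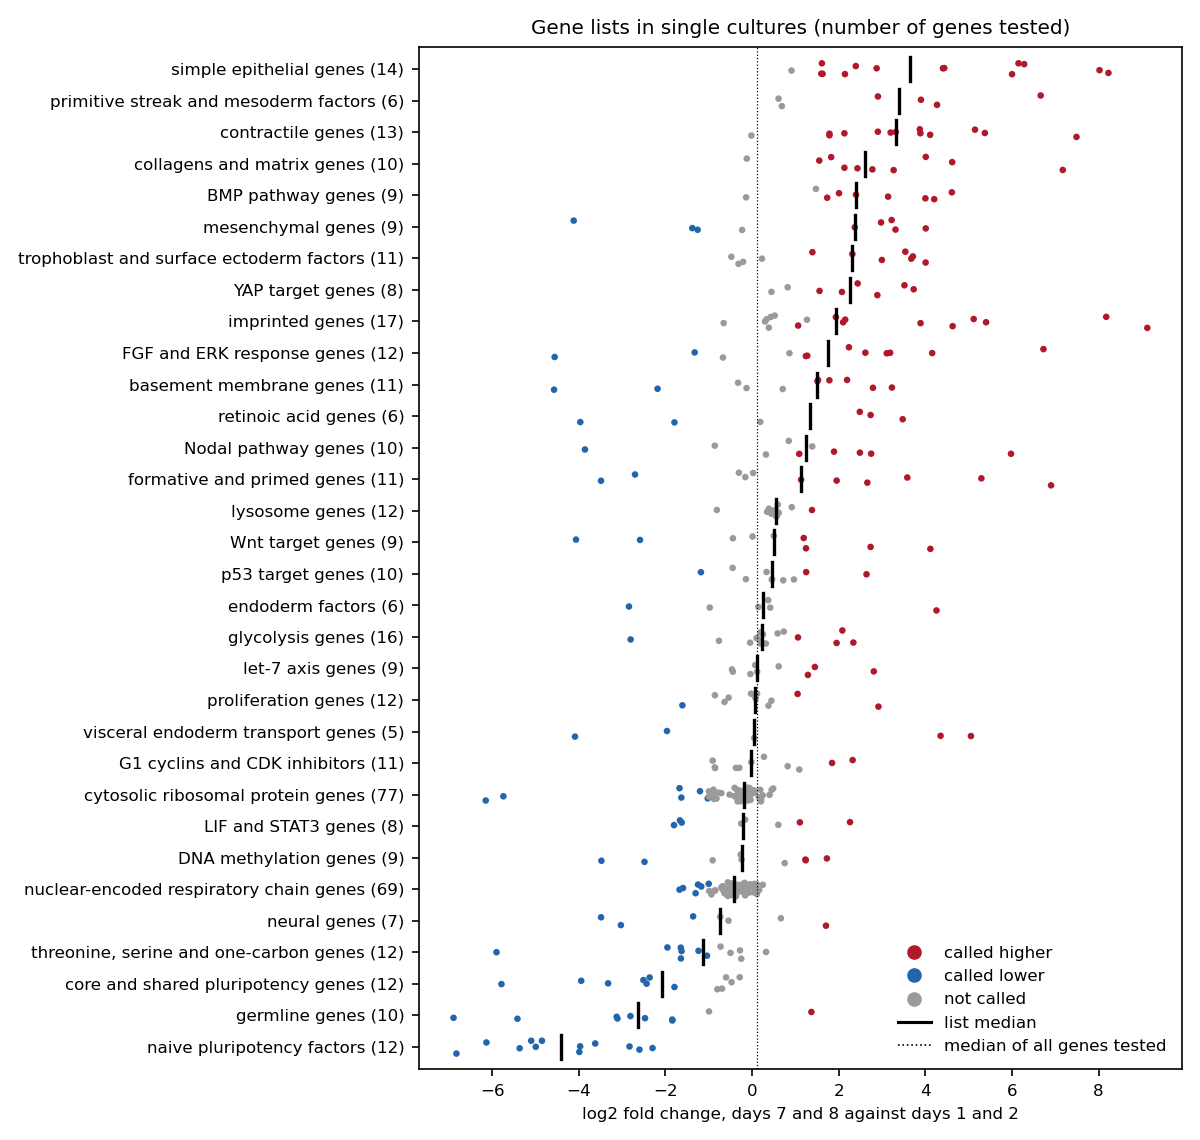
Log2 fold change, late against early, of each gene tested in 32 lists with at least 5 genes tested, red for called higher, blue for called lower and grey for not called, with a black bar at the list median and a dotted line at the median of all genes tested (0.10). Simple epithelial genes are at the top (median 3.64) and naive pluripotency factors at the bottom (median -4.42), while most ribosomal and respiratory genes are grey.

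The days between the groups showed when the change took place. For each called gene, the mean log2 value of the 2 single libraries of a day was placed on a scale where 0% is the mean of days 1 and 2 and 100% the mean of days 7 and 8. The median of the 2180 genes called higher stood at 9.7% (day 3), 40.2% (day 4), 74.2% (day 5) and 85.3% (day 6), and that of the 1220 genes called lower 10.2%, 40%, 81.4% and 84.7%. Of the genes called higher, 14.2% first reached 50% by day 3, 30.2% a day later, 33.3% by day 5 and 14.6% in the day after, while 7.7% were still below it.

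The lists are described here by the day on which their called members moved. Naive factors were at 16.4% of their fall on day 3 and at 102.8% on day 4. At the median, the risen formative genes were ahead of them, at 85% on day 3, and stood at 143.5% on day 4, above their late level. Otx2 was at 243 and 257 RPM (X14 and X18) on day 4. Fgf5 departed from this median, at 0 RPM on day 3 and at 69.2 and 46 RPM on day 4, below its late mean of 91.2 RPM. It was at 5.76 and 6.6 RPM on day 5 and at 131 and 120 RPM on day 6. On days 4, 5 and 6, epithelial genes were at 47%, 83.8% and 92.5%, and contractile genes at 29.3%, 95.6% and 102.1%. One-carbon genes were at 8.7%, 94.4% and 72.3%, so their fall on day 5 was partly reversed on day 6. The median of the fallen germline genes followed, at 23.4% on day 5 and 70.3% on day 6. Its members differed in timing. On day 4 (X14 and X18), Stra8 was at 0 RPM in both lines and Dazl at 9.71 and 13.5 RPM, whereas Piwil2 was at 35.6 and 26.3 RPM. The 4 streak and mesoderm factors were at -6.1% on day 5 and at 95.4% on day 6, and the 7 trophoblast and surface ectoderm factors at 0.1%, 34.3%, 78.5% and 121.5% on days 5, 6, 7 and 8. Day 5 also stood apart from its neighbours in other lists. On days 4, 5 and 6 the fallen ribosomal genes were at 31.6%, 95.9% and 66%, and the risen glycolysis genes at 64.7%, 23.9% and 102.4%. The cause was not tested. Each point is the median over few genes and rests on 2 libraries, and the days were not tested against each other.

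**Figure D4:**
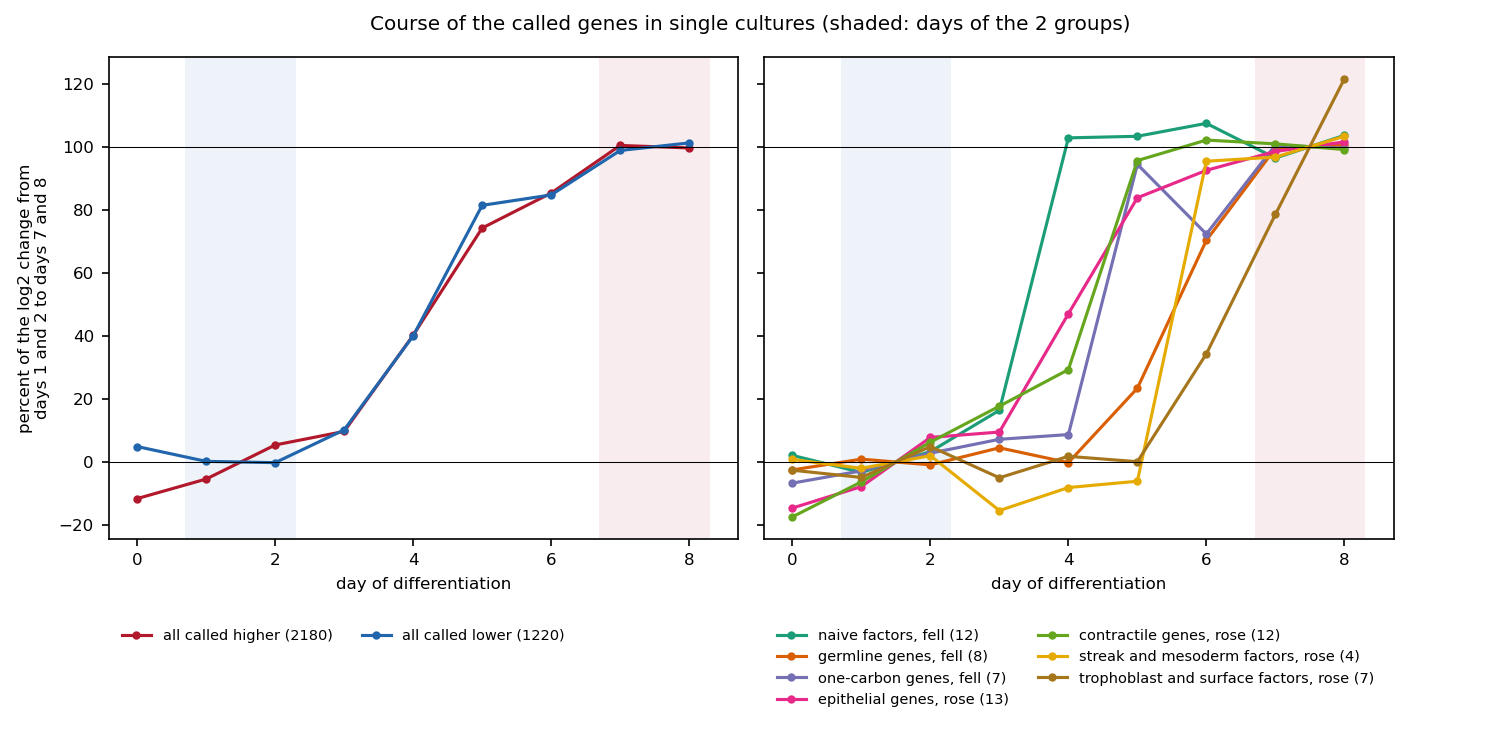
Median percent of the log2 change between days 1 and 2 (0%, blue shade) and days 7 and 8 (100%, red shade) on each day from 0 to 8, for all called genes (left) and for the called members of 7 lists (right), each day as the mean of the X14 and X18 single libraries. The naive factors are past 100% on day 4, whereas trophoblast and surface ectoderm factors are at 0.1% on day 5 and still climb between days 7 and 8.

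Pearson's r between the 2 lines' log2 fold changes was 0.88 over the genes tested, which are not independent replicates. With limma, the interaction of line and stage called 0 genes (0%), with a smallest adjusted p of 0.47 and 358 genes (2.96%) at an unadjusted p under 0.05. Each line has 2 libraries per stage, and a count of 0 does not show that the lines acted alike. Without X14 the stage contrast called 1989 genes, against 2949 without X18. Within a stage, 5.4% to 5.6% of genes with at least 10 RPM differed by at least 1 on the log2 scale between the 2 days in X14, and 13.2% to 14.1% in X18.

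To ask what holds for single cultures in particular, their late against early change was set against that of the 8 double libraries of the same lines and days, by the interaction of label and stage in limma over 13137 autosomal genes. The difference (change in single minus change in double) was called above 0 for 94 genes (0.716%) and below 0 for 250 (1.90%), and 170 of these 344 genes were also called between late and early single cultures. Of the 250, 213 are genes that rose more in double than in single cultures or rose in double and fell in single, and 37 fell more in single. The count was 285 with the replicate number as a block, and it fell to 179 without the X14 day 8 double library.

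Members of the lists described above were among them. Nanog fell less in single (-2.30) than in double cultures (-4.36; difference 2.06 ± 0.37, adjusted p = 0.0057), from 1251 to 249.6 RPM against 2191 to 111 RPM. Nodal was at 0.32 in single and -1.20 in double (difference 1.51 ± 0.27, adjusted p = 0.0054). Tdgf1, the Nodal co-receptor, was at -0.80 and -2.59 (difference 1.79 ± 0.46, adjusted p = 0.039). The epithelial genes Cldn7, Cldn4 and Pkp3 rose less in single, with log2 fold changes of 4.44, 2.14 and 1.61 against 6.72, 3.60 and 4.33. Pecam1 fell more in single, at -5.39 against -2.85 (difference -2.54 ± 0.45, adjusted p = 0.0049), and Cyr61 rose more, at 2.89 against 1.13 (difference 1.76 ± 0.38, adjusted p = 0.016). In all, 20 list members were called.

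The most negative differences were of Tcstv1, Gm13109, AC238940.3 and Dub3. Tcstv1, a gene of 2-cell embryos, went from 5.09 ± 1.66 to 0.179 ± 0.358 RPM in single and from 1.53 ± 1.07 to 19.9 ± 7.24 RPM in double cultures (SD, n = 4). Gm13109 went from 7.78 ± 3.26 RPM to no read in single and from 2.33 ± 2.18 to 20.2 ± 6.1 RPM in double. These genes belong to families with close copies, and how reads were assigned among copies is not given in the sources used here. The most positive differences were of Asz1, Herc6, Tspan2 and Cyp7b1. Asz1, a germline gene, had no read in any of the 8 single libraries, and was at 10.6 ± 4.86 RPM in early double libraries and at 0 in late ones, so its difference is the fall in double cultures alone. Herc6, an ISG15 ligase, went from 1.87 ± 0.549 to 6.26 ± 2.71 RPM in single and from 10.9 ± 2.11 to 2.45 ± 0.992 RPM in double cultures.

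**Figure D5:**
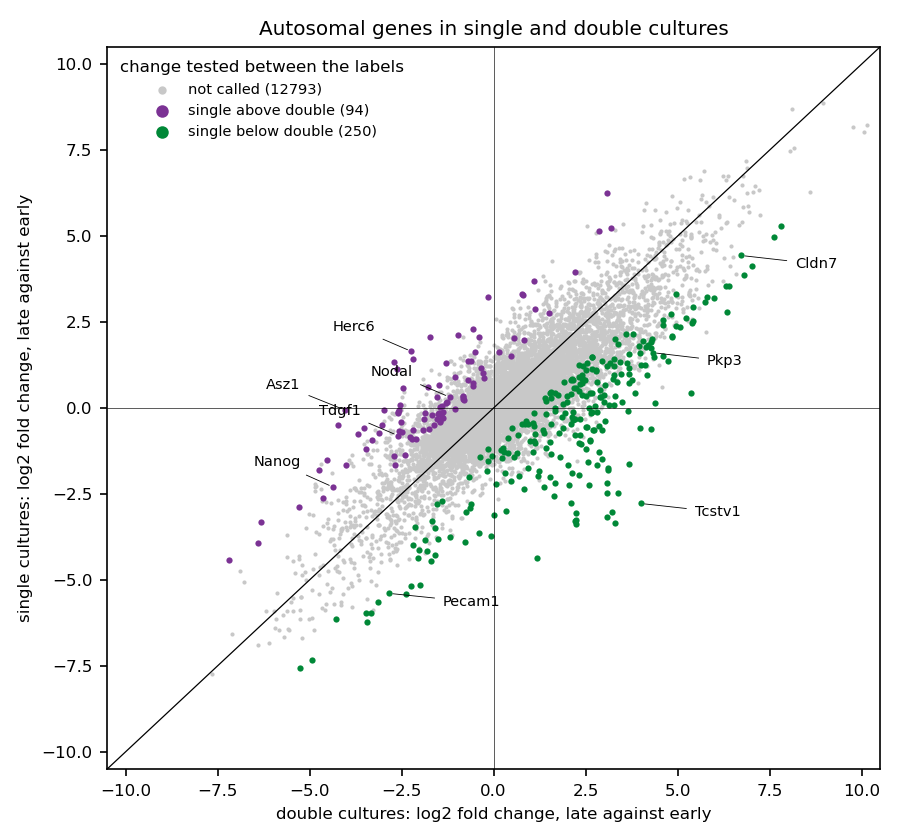
Log2 fold change, late against early, of 13137 autosomal genes in double (x axis) and single (y axis) cultures, with genes whose change differed by the interaction test in purple (single above double, 94) and green (single below double, 250) and the diagonal marking equal change. Cldn7, Pkp3, Pecam1 and Tcstv1 lie below the diagonal, and Nanog, Nodal, Tdgf1, Asz1 and Herc6 above it.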

How the data were processed

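RNA was sequenced as single-end reads of 75 bases in 36 libraries, of which 8 form the comparison. Per the labels and methods, TruSeq libraries were run on a NextSeq500, reads were trimmed with trim_galore, mapped to mm10 with TopHat2 2.0.12 (bcl2fastq is also named in the submitters' processing notes) and quantified per gene in SeqMonk. The authors deposited log2 values per gene. The name of the deposited table says log CPM, but the values were read as log2 RPKM in which 0 reads is written as 0.9 read. On this reading 100% of the 25965 genes resolved to whole reads within 0.1 read, 8528 of them being genes without reads. Whole reads do not show a scaling by length. That part rests on exon lengths, which were the same as in GENCODE for 52.8% of the 22710 genes matched to it. Strand and annotation are not given in the sources used here, so overlapping, antisense and near-identical genes are uncertain.

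Here RPM was computed from the recovered reads, and the deposited log2 values were tested in limma 3.58.1 (R 4.3.3) with line as covariate, for genes with at least 1 RPM in 4 of the 8 libraries. Genes were called at an adjusted p under 0.05 and a log2 fold change of at least 1. Depth was 730127 to 1844587 reads in genes. The replicate number equals the line (2 for X14 single, 4 for X18 single), so the line covariate is the replicate block. Deviations of the lines correlated between early and late at 0.419 over genes. Named are the 12 largest rises and 12 largest falls with groups apart and at least 10 RPM, up to 3 called members of each list in its main direction and 2 in the other with at least 10 RPM, and 4 genes each way of each interaction. Other members named were chosen after their values were seen. Members and lists were chosen with earlier results of these data known. RefSeq promoter windows (GRCm38.p6) were matched by symbol for 69.0% of genes tested. Fitting was tested on simulated data. X-linked genes were left out of counts. Alternatives changed the filter, scaling, offset, test, block and libraries. Values of some list members are not reported here.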

Additional observations from a re-analysis of the deposited data

Results flagged for a closer look

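Igf2 was at 8.55 RPM in the early X14 day 2 library and at 0 to 1.05 RPM in the other 3 early libraries, which set that library apart from its group (gap over range 0.965, above Dixon's critical value for 4 samples). Of 48 groups of 4 libraries tested in this way 1 was found, and chance alone marks about 1 in 20 groups.

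For 8 genes the late against early change differed most between single and double cultures by limma's interaction test. The change in single minus the change in double, on the log2 scale, was 3.96 for Asz1, 3.88 for Herc6, 3.80 for Tspan2 and 3.76 for Cyp7b1. It was -6.77 for Tcstv1, -6.63 for Gm13109, -6.25 for AC238940.3 and -6.25 for Dub3. Asz1 had no read in any of the 8 single libraries, so its value is the fall in double cultures alone. The cause was not tested.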

How the results depend on the processing

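The 3400 calls between late and early became 2118 with a mean of at least 10 RPM, 5130 with no minimum fold change, and 3390 with the variance trend on RPM, a setting chosen after seeing the data. Leaving out 1 library gave 3150 to 3384 calls, leaving out line X14 (replicate 2) 1989 and leaving out X18 2949. Line is the replicate block: with no replicate block the count was 3212, and for the difference between single and double cultures (344) the replicate block gave 285. Leaving out 1 library moved that difference between 179 and 479 genes. It was 179 without X14 day 8 double, 192 without X14 day 7 single, 203 without X18 day 2 single, 218 without X14 day 1 single, 219 without X18 day 1 double, 221 without X18 day 8 single and 228 without X14 day 2 single. The difference between the lines was called for 0 genes under each of its 14 alternatives. Of 3043 late against early values of 133 named genes under the alternatives, 2988 kept direction and call, 49 lost the call, 1 gained it and 5 reversed. All 5 were of Thy1, not called (main value below 0), at 0.025 with voom, 0.05 without X14 day 8, 0.34 without X18 day 8, 0.31 without X14 day 2 and 0.29 without X14, within -1.01 to 0.34 over the libraries left out. Of the differences between single and double cultures, those of the 8 genes that differed most were recomputed, with direction and call kept, and those of other named genes were not. The mesenchymal median turned to -1.26 under the 10 RPM filter. The causes were not tested. Depth limits genes at a few RPM, where 3 reads are 1.46 to 3.57 RPM.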

Other observations

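Some genes stood higher between the groups than in either of them. By a rule chosen after seeing the data, 104 autosomal genes were higher on day 4 or 5 in both lines, by at least 1 on the log2 scale, than in all early and late libraries of that line, and 4 of them belong to the formative and primed list. The de novo methyltransferase gene Dnmt3a had a mean of 106 RPM early, 816 RPM on day 4, 205 RPM on day 5 and 81.4 RPM late. Spry4, a feedback inhibitor of FGF signalling, had 4.37 RPM early, 89.0 RPM on day 4, 12.9 RPM on day 5 and 8.16 RPM late. Jph4, a junctophilin, had 1.65 RPM early, 31.0 RPM on day 4 and 3.19 RPM late. Each day between the groups holds 1 library per line, and no test was run.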
